A study of Rattus norvegicus with 4 samples.

Results

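The microRNAs described here are encoded inside the Hox gene clusters: miR-10a and miR-10b, and miR-196a, miR-196b and miR-196c, each with its 5p and 3p arm. They were chosen by name, and 10 of the 836 small RNA names in the deposited tables belong to them, from rno-miR-10a-5p, rno-miR-10a-3p and rno-miR-10b-5p to rno-miR-196a-5p and rno-miR-196c-5p. The rat prefix rno is left out from here on. The libraries are of small RNA from extracellular vesicles (EVs), the membrane-bound particles that cells release into the medium. RMT1, a rat breast cancer cell line, gave 2 libraries, here RMT1 EV 1 and RMT1 EV 2, from vesicles collected from culture supernatant by ultracentrifugation. PC12, a rat line from a catecholamine-producing tumour of the adrenal medulla, gave 1 library titled EVd and 1 titled EVu. No label explains the letters d and u or names a treatment, and all libraries were made with the same small RNA kit.

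Hox genes give the cells of an embryo their position along the head to tail axis, and their microRNAs lie among them and are known to be active in similar body regions. A microRNA finds its target mRNAs mainly through its seed, the bases 2 to 8 from its 5′ end. In work on human and mouse cells, miR-10b is known to repress HOXD10 and to favour invasion of breast cancer cells, and miR-196 is known to cut the mRNA of Hoxb8. Both families are also known from vesicles and body fluids, but nothing in these data bears on their targets.

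The mature sequences are shown because names of the same family differ by so little that a read can be credited to the wrong name. RefSeq, on the rat assembly GRCr8, gave a mature sequence for 9 of the 10 names, all but miR-196a-3p, with lengths of 21 to 23 bases. Capitals mark the seed, 5′ to 3′.
miR-10a-5p: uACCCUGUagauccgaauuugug
miR-10a-3p: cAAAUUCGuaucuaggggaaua
miR-10b-5p: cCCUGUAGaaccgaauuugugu
miR-10b-3p: aCAGAUUCgauucuaggggaa
miR-196a-5p: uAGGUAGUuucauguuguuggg
miR-196b-5p: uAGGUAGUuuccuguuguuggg
miR-196c-5p: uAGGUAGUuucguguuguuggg
miR-196b-3p: uCGACAGCacgacacugccuuca
miR-196c-3p: aCAACAACaccaaaccaccuga

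The annotated rat miR-10b-5p starts 2 bases later in its hairpin than miR-10a-5p does in its own, so the annotated seeds, CCUGUAG and ACCCUGU, differ. Read from the same start, the hairpins give the same seed and 1 difference over the length of miR-10a-5p, U12A, with positions counted from 1 at the 5′ end of miR-10a-5p. In the lines below, capitals mark that position.
miR-10a-5p: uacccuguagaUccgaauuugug
miR-10b hairpin from the same start: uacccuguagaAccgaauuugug
The 3p arms miR-10a-3p and miR-10b-3p stand further apart, at an edit distance of 6 bases.

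The 3 miR-196 5p arms share the seed AGGUAGU and differ from each other only at position 12, A12C from miR-196a-5p to miR-196b-5p, A12G from miR-196a-5p to miR-196c-5p and C12G from miR-196b-5p to miR-196c-5p. Capitals mark that position below.
miR-196a-5p: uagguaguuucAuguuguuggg
miR-196b-5p: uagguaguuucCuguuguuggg
miR-196c-5p: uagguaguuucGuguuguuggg
No other name among the 686 searched had this seed. Its 7 letters also stand in 8 let-7 and miR-98 names, but from position 3 on, that is 1 base later than in miR-196.

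In GRCr8 the gene of miR-10a lies between Hoxb5 and Hoxb4, and that of miR-196c between Hoxb13 and Hoxb9. The gene of miR-10b lies within the span of Hoxd4, that of miR-196a between Hoxc10 and Hoxc9, and that of miR-196b between Hoxa9 and Hoxa10. The deposited PC12 table places miR-10a-5p at chr10:83968703-83968725 and miR-196c-5p at chr10:83916633-83916654, both on the + strand, 52048 bp apart. It places miR-10b-5p at chr3:68113689-68113710 and miR-196a-5p at chr7:142375616-142375637, both on the + strand. The table does not name the build of these positions. It gives miR-196b-3p at both chr4:146865899-146865921 and chr4:146951694-146951716 on the - strand, so its counts may come from either copy.

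The PC12 libraries were deposited in 2 tables that count the same libraries differently. The PC12 table holds raw counts, with totals of 386957 in EVd and 512244 in EVu. The table of all 4 libraries holds log2 values that the authors scaled jointly, from which counts were recovered as whole multiples of 1 step per library. Their totals were 799224 and 716940 in RMT1, 338233 in EVd and 436840 in EVu. The let-7 family took 69.3% and 68.9% of the RMT1 counts, 21.6% in EVd and 23.0% in EVu, so the scale matters and is given with each value. A count of 0 allows a share of up to 0.000375% and 0.000418% in RMT1, 0.000887% in EVd and 0.000687% in EVu, taking 3 counts as the limit. Intervals and limits cover counting error only.

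The miR-10 and miR-196 names were far rarer in RMT1 EVs than in PC12 EVs. In the table of all 4 libraries the 10 names together held 0.00813% and 0.00851% of the RMT1 counts, against 2.07% in EVd (95% exact binomial interval 2.02 to 2.12) and 2.72% in EVu (2.67 to 2.77). RMT1 averaged 0.00832% ± 0.000266 (SD, n = 2). The pooled share was 293-fold lower in RMT1 (interval 246 to 352). With let-7 left out of the totals the ratio was 117-fold (97.9 to 140). The ratios of pooled shares given below for single names and pairs use totals with let-7. Their folds lower in RMT1 are therefore larger than they would be with let-7 left out. In bulk vesicle RNA, fewer vesicles with a microRNA and fewer copies per vesicle cannot be told apart.

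Most of this was miR-10. Its 4 names held 0.00788% and 0.00781% in RMT1, against 1.77% in EVd and 2.30% in EVu. The 6 miR-196 names held 0.000250% and 0.000697% in RMT1, against 0.300% in EVd and 0.422% in EVu. By cluster, the Hoxb names miR-10a and miR-196c summed to 0.00763% and 0.00795% in RMT1, against 1.20% in EVd and 1.64% in EVu. The Hoxd names, both arms of miR-10b, summed to 0.000250% and 0% in RMT1, against 0.707% in EVd and 0.864% in EVu. The Hoxc names, both arms of miR-196a, summed to 0.000250% and 0.000558% in RMT1, against 0.151% in EVd and 0.203% in EVu. The Hoxa names, both arms of miR-196b, had no count in RMT1 and held 0.00769% in EVd and 0.00939% in EVu. In PC12 all 4 clusters were thus counted, with Hoxb at the highest share and Hoxa at the lowest. The Hoxa counts were all of miR-196b-5p, 1 base from the commoner miR-196a-5p and miR-196c-5p, so they may include misassigned reads. The Hoxd share depends on the table, since the PC12 table gave 0.151% in EVd and 0.150% in EVu.

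**Figure D1:**
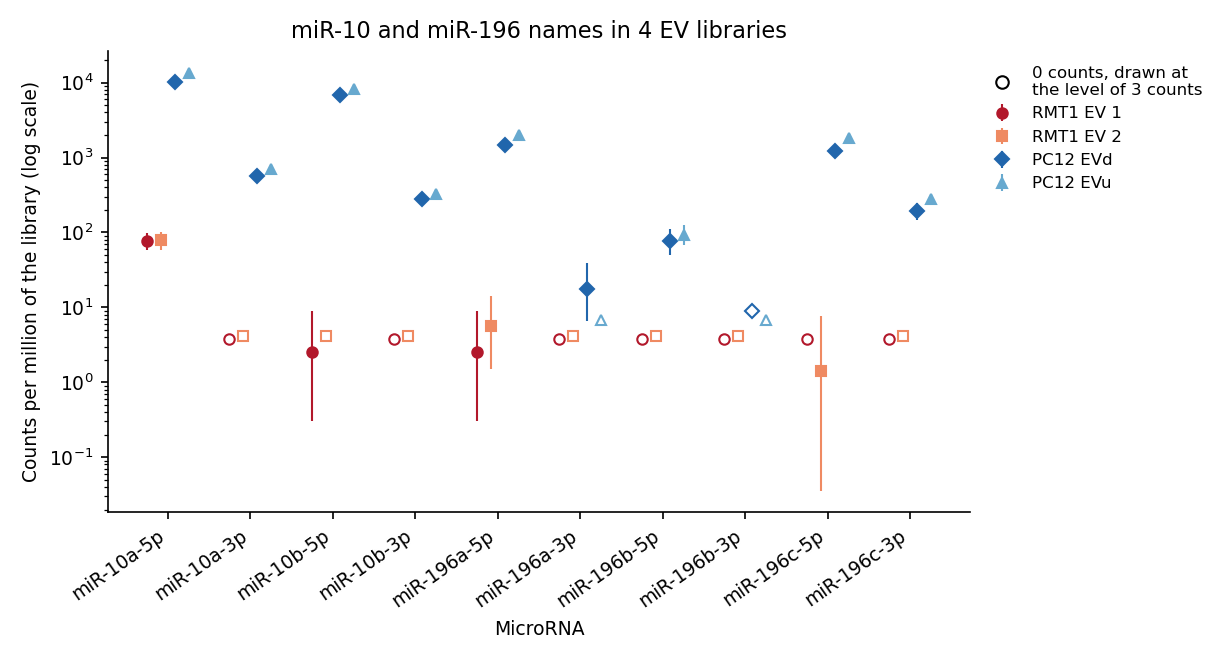
CPM, counts scaled to a fixed library total, in each library (log axis) for the 10 names in the table of all 4 libraries, with exact 95% binomial intervals; open symbols are counts of 0, drawn at the level of 3 counts. Of the RMT1 values miR-10a-5p lies highest, at 76.3 and 78.1 CPM, and the PC12 libraries lie above them for every name that has a count in both PC12 libraries.

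miR-10a-5p, the main arm of miR-10a, was the most abundant of the names in every library. It had 61 and 56 counts in RMT1, against 3399 in EVd and 5959 in EVu. It ranked 110 of 277 and 107 of 263 counted names in RMT1, against 27 of 364 in EVd and 21 of 388 in EVu. The RMT1 libraries lay close together, at 0.00763% and 0.00781%, and far from both PC12 libraries. On the authors' log2 scale it had 6.92 and 7.12 in RMT1, against 12.57 in EVd and 12.96 in EVu. The difference was -5.75 ± 0.12 (SE, limma, adjusted p = 0.00817), and the pooled share was 156-fold lower in RMT1 (130 to 189). Relative to the median of all 278 tested names, which was -1.12, it was -4.64. Scaled by library totals the difference was -7.23, with a median of all names of -2.54.

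With a threshold of 0.05 on the adjusted p, limma called 103 of the 278 tested names lower in RMT1, or 37.1%, so a lower level there was common. It called 92 higher, or 33.1%, with 56 higher without RMT1 EV 1 and 53 without RMT1 EV 2. The fits without an RMT1 library took EVd and EVu as replicates of 1 PC12 group, so their error term differs from that of the main fit. With no filter on low values limma called 192 lower. Fitted only on the 216 names counted in both RMT1 libraries, it called 79 lower and 103 higher, with a median difference of 0.43. That choice leaves out names at 0 in RMT1, so the balance of calls depends on which names are tested. Of the 10 names here, 8 reached the minimum linear mean of 10, and 7 of these reached it through PC12 alone, so their direction was fixed by the filter and their number is not read as a result. miR-10a-5p was the exception, with a linear mean of 130 in RMT1. In the main fit only the RMT1 pair gives a spread, and the p-values cover no more than that. Nothing says that the pair came from separate cultures, so the spread may be technical. Cell line and any batch of preparation cannot be told apart.

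miR-10b-5p had 2 and 0 counts in RMT1, against 2296 in EVd and 3631 in EVu. It was thus near the limit of counting in RMT1 and next to miR-10a-5p in PC12 in this table. It reached the minimum through PC12 alone, so no p is given. The pooled share was 5797-fold lower in RMT1, with an interval of 1604 to 47879. The fitted log2 difference was -11.13, with -12.13 without RMT1 EV 1 and -10.14 without RMT1 EV 2, so its size rests on 1 library. The main fit and the fit without RMT1 EV 1 rest on the value given to the count of 0 in RMT1 EV 2. The size rests on the table too, since the PC12 table gave 4.75 times fewer counts in EVd and 5.99 times fewer in EVu.

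miR-196a-5p had 2 and 4 counts in RMT1, against 505 in EVd and 885 in EVu. The pooled share was 453-fold lower in RMT1 (208 to 1237). The fitted log2 difference was -7.37, with -6.71 without RMT1 EV 1 and -8.03 without RMT1 EV 2. miR-196c-5p had 0 and 1 counts in RMT1, against 412 in EVd and 795 in EVu. The pooled share was 2361-fold lower in RMT1, with an interval of 423 to 93334, and the fitted log2 difference was -9.14, with -8.48 without RMT1 EV 1 and -9.79 without RMT1 EV 2. Both names reached the minimum through PC12 alone, so no p is given. Their direction was thus fixed by the filter. For miR-196c-5p the main fit and the fit without RMT1 EV 2 rest on the value given to the count of 0 in RMT1 EV 1.

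The other 6 names had no count in either RMT1 library, so they have no measured spread there and the bounds use 3 counts over both RMT1 libraries. The bounds take the PC12 shares as counted, so they leave out the counting error in PC12. Among the 278 tested names, 35 were at 0 in both RMT1 libraries, 12.6%, and 4 of these are names described here. miR-10a-3p, the minor arm of miR-10a, had 190 counts in EVd and 304 in EVu, and its pooled share was at least 322-fold lower in RMT1. miR-10b-3p had 96 in EVd and 143 in EVu and was at least 156-fold lower. miR-196c-3p had 65 in EVd and 121 in EVu and was at least 121-fold lower, and miR-196b-5p had 26 in EVd and 41 in EVu and was at least 43.7-fold lower. The remaining names were too rare to say much: miR-196a-3p had 6 counts in EVd and 0 in EVu, at least 3.91-fold lower in RMT1, and miR-196b-3p was at 0 in all 4 libraries of this table.

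**Figure D2:**
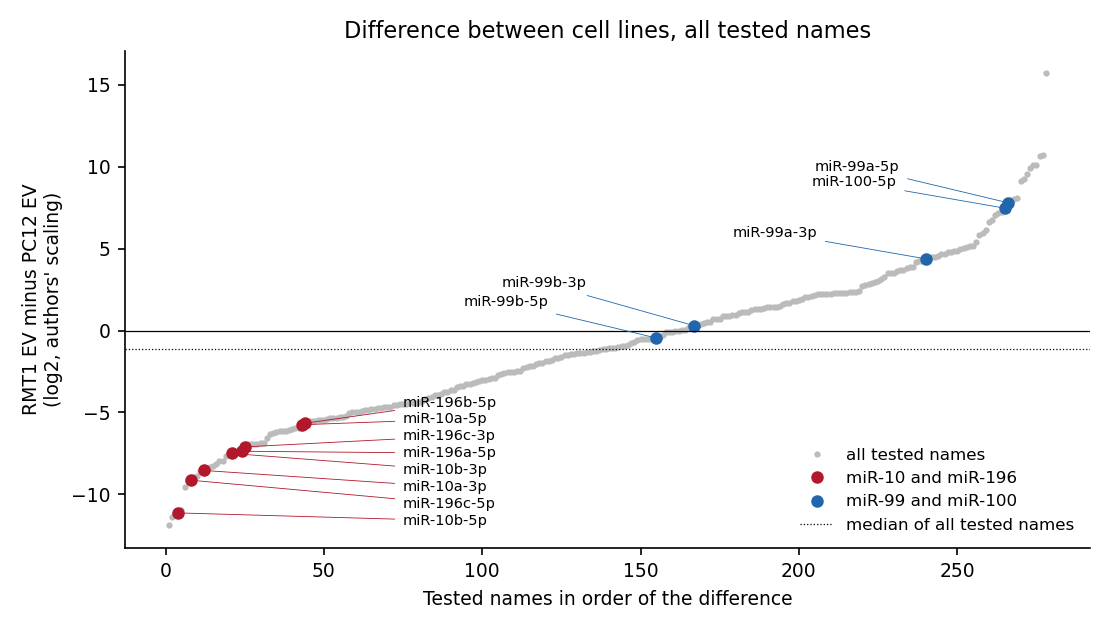
RMT1 EV minus PC12 EV (log2, authors' scaling, limma) for the 278 tested names in order, with the 8 tested miR-10 and miR-196 names in red and miR-99 and miR-100 names in blue. The red points run from -11.13 for miR-10b-5p to -5.66 for miR-196b-5p, below the dotted median of -1.12. Values of names at 0 in either or both RMT1 libraries, miR-10b-5p and miR-196c-5p among them, depend on the value given to a count of 0.

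Within PC12 the order of the levels in the table of all 4 libraries was miR-10a-5p, miR-10b-5p, miR-196a-5p, miR-196c-5p, miR-10a-3p, miR-10b-3p, miR-196c-3p and miR-196b-5p in both libraries. Mature lengths are nearly equal, so shares were compared without scaling by length. miR-196a-5p and miR-196c-5p had overlapping intervals in EVu, 0.203% (0.189 to 0.216) and 0.182% (0.170 to 0.195), but not in EVd, at 0.149% (0.137 to 0.163) and 0.122% (0.110 to 0.134). The intervals of miR-10b-3p and miR-196c-3p overlapped in both, with 0.0284% and 0.0192% in EVd and 0.0327% and 0.0277% in EVu. In the PC12 table miR-10b-5p came after miR-196a-5p in EVd, and after both miR-196c-5p and miR-196a-5p in EVu.

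The share of miR-10b-5p depended on which table was read. The table of all 4 libraries gave 2296 counts in EVd and 3631 in EVu, and the PC12 table gave 483 and 606 for the same libraries. miR-10a-5p went the other way, with 3399 in EVd and 5959 in EVu in the table of all 4 libraries, and 5341 and 9450 in the PC12 table. The sum of both names was nearly the same, 5695 and 5824 in EVd and 9590 and 10056 in EVu. The tables thus differ in which of these names holds the counts, and far less in how many counts the pair holds.

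miR-10b-5p therefore made up 40.3% (39.0 to 41.6) of the pair in EVd and 37.9% (36.9 to 38.8) in EVu in the table of all 4 libraries, but 8.29% (7.60 to 9.03) and 6.03% (5.57 to 6.51) in the PC12 table. In RMT1 it made up 2 of 63 counts and 0 of 56 counts in the table of all 4 libraries, pooled 1.68% (0.204 to 5.94). Within that table the RMT1 interval lies below the PC12 ones. It overlaps the EVu interval of the PC12 table, so a difference from RMT1 depended on the table. The RMT1 libraries are in the table of all 4 libraries alone, so no RMT1 split under the other count was used here. On the sum of the pair, the difference between cell lines was -6.44 ± 0.09 (SE, limma, adjusted p = 0.00562), and the pooled share was 251-fold lower in RMT1 (210 to 304). That value does not depend on the split.

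The 3p arms, which differ by more bases, showed no such gap between the tables. miR-10b-3p made up 33.6% (28.1 to 39.4) of miR-10a-3p plus miR-10b-3p in EVd and 32.0% (27.7 to 36.5) in EVu in the table of all 4 libraries. The PC12 table gave 32.1% (27.0 to 37.5) in EVd and 32.7% (28.6 to 37.1) in EVu. Which table credits the 5p reads to the right hairpin was not tested.

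**Figure D3:**
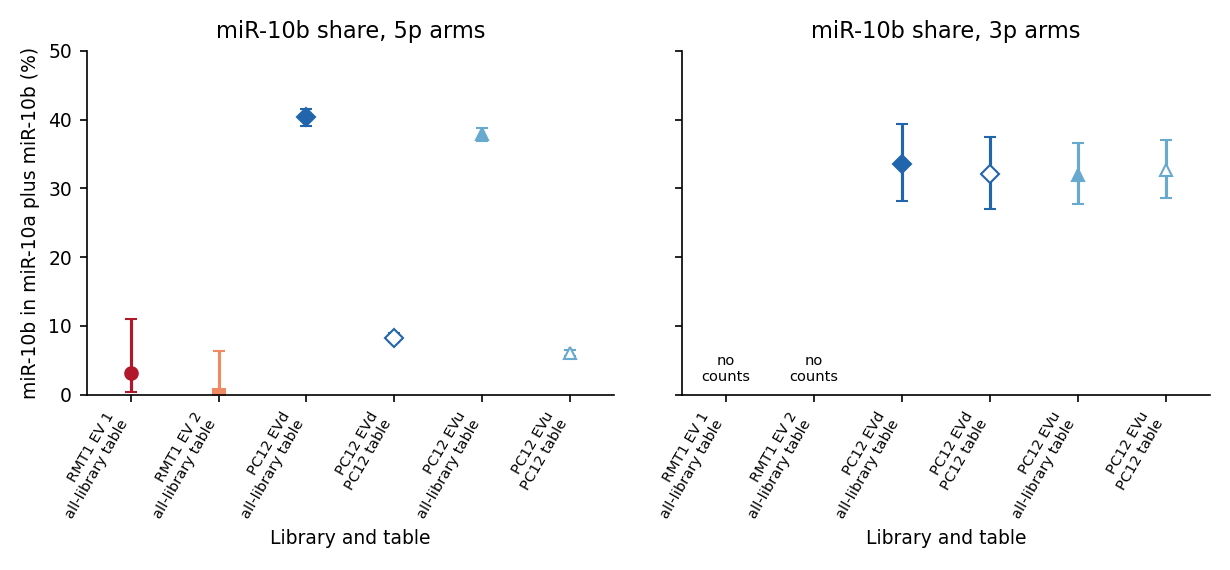
Share of miR-10b in miR-10a plus miR-10b (%) for the 5p arms (left) and the 3p arms (right), by library and table, with exact 95% binomial intervals; filled symbols are the table of all 4 libraries and open symbols the PC12 table. The 5p shares of PC12 are near 40% in one table and below 10% in the other, while the 4 values of the 3p arms lie between 32.0% and 33.6%.

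Set against all names, the direction of the miR-10b-5p gap was unusual. Among names with at least 10 counts in the PC12 table, 440 in EVd and 494 in EVu, most had fewer counts in the table of all 4 libraries, with median ratios of 0.755 in EVd and 0.701 in EVu over those above 0, and 146 and 161 names were at 0 there. miR-10b-5p was the only name more than 2-fold higher in the table of all 4 libraries, at 4.75-fold in EVd and 5.99-fold in EVu. The miR-196 names differed little, with ratios of 0.988 and 0.983 for miR-196a-5p and 0.867 and 0.869 for miR-196c-5p, in EVd and EVu. miR-196b-5p and miR-196a-3p have no row in the PC12 table, and miR-196b-3p, with 8 and 10 counts there, was at 0 in the other.

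**Figure D4:**
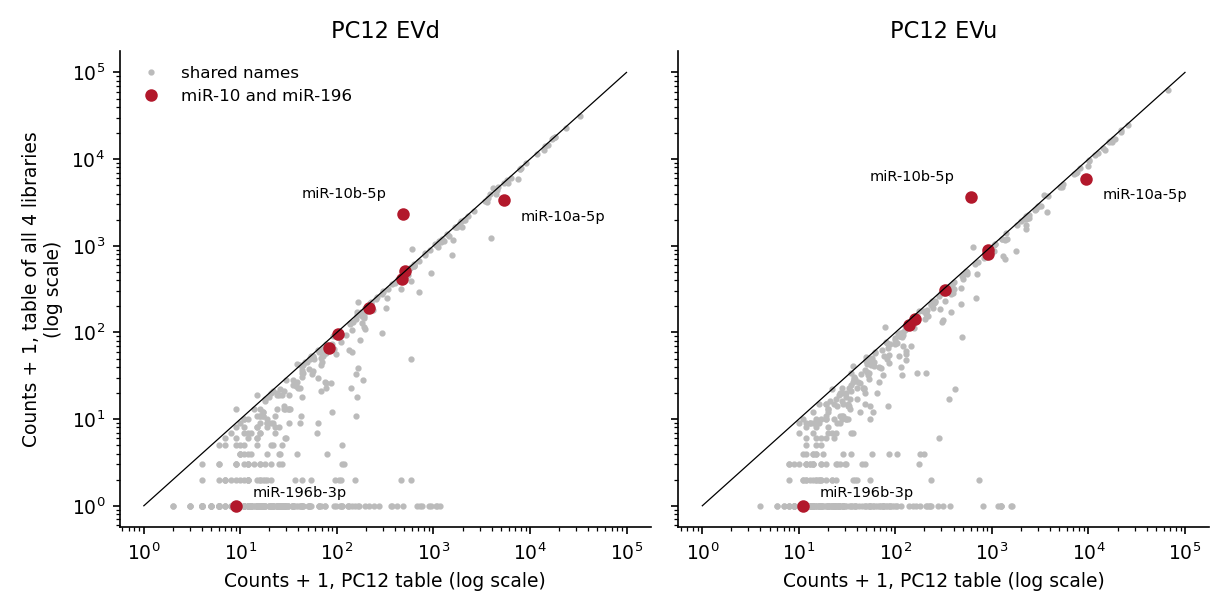
Counts + 1 of each shared name in the PC12 table (x, log axis) and in the table of all 4 libraries (y, log axis), for EVd and EVu, with miR-10 and miR-196 names in red and the line of equal counts. miR-10b-5p lies above the line at 483 and 2296 counts in EVd and 606 and 3631 in EVu, and miR-10a-5p lies below it.

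The arms of a hairpin come from the same precursor, and usually 1 of them is kept. miR-10a-3p made up 0% of 117 miR-10a counts in RMT1 (0 to 3.10), against 5.29% (4.58 to 6.08) in EVd and 4.85% (4.33 to 5.42) in EVu in the table of all 4 libraries, and 3.89% (3.39 to 4.43) in EVd and 3.36% (3.02 to 3.74) in EVu in the PC12 table. The RMT1 upper bound lies below the intervals of the same table and within that of EVu in the PC12 table, so a difference from RMT1 depended on the table. miR-10b-3p made up 4.01% of miR-10b in EVd and 3.79% in EVu there, but 17.4% and 20.9% in the PC12 table, where its 5p partner had fewer counts. miR-196c-3p made up 13.6% in EVd and 13.2% in EVu, and 14.6% and 13.2% in the PC12 table. miR-196c thus had the largest share of its minor arm among these 3 hairpins in the table of all 4 libraries, and miR-10b in the PC12 table.

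miR-196c-5p and miR-196a-5p come from different clusters and differ by 1 base. miR-196c-5p made up 44.9% (41.7 to 48.2) of their sum in EVd and 47.3% (44.9 to 49.7) in EVu in the table of all 4 libraries, and 48.2% (45.0 to 51.3) in EVd and 50.4% (48.1 to 52.7) in EVu in the PC12 table. In RMT1 the 7 counts of the pair are too few for a split. The names were thus near equal in PC12 in either table.

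EVd held less of both families than EVu, by less than 2-fold. There is 1 library of each, so no test was made, and the interval of the ratio covers counting error only. In the PC12 table miR-10a-5p had 13803 CPM in EVd and 18448 in EVu, a log2 ratio of -0.42 (-0.47 to -0.37). miR-196a-5p had 1321 in EVd and 1757 in EVu, at -0.41 (-0.57 to -0.25), and miR-196c-5p had 1228 in EVd and 1786 in EVu, at -0.54 (-0.70 to -0.38). For these 3 names the interval excluded 0 in both tables.

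Of the 3p arms, 3 had ratios of the same sign with wider intervals. In the PC12 table miR-10a-3p was at -0.20 (-0.46 to 0.05), miR-10b-3p at -0.24 (-0.62 to 0.12) and miR-196c-3p at -0.37 (-0.79 to 0.03). In the table of all 4 libraries the interval excluded 0 for miR-10a-3p, at -0.31 (-0.58 to -0.04), and miR-196c-3p, at -0.53 (-0.99 to -0.08). It included 0 for miR-10b-3p, at -0.21 (-0.59 to 0.18). miR-196b-3p, with 8 counts in EVd and 10 in EVu, was at 0.08 (-1.46 to 1.58), and miR-196a-3p had 6 counts in EVd and 0 in EVu in the table of all 4 libraries. miR-10b-5p was at 0.08 (-0.10 to 0.25) in the PC12 table and at -0.29 (-0.37 to -0.22) in the table of all 4 libraries, so its direction changed with the table. The sum of miR-10a-5p and miR-10b-5p was at -0.38 in both tables.

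Of 472 microRNA names with a mean of at least 10 counts in the PC12 table, 13.8% were at least 2-fold higher in EVd and 6.99% at least 2-fold lower. None of the 7 names counted here was past 2-fold. Their median log2 ratio was -0.37 and 6 of 7 were below 0, beside a median of 0.06 and 220 of 472 below 0 over all names. In the table of all 4 libraries 23.6% of 246 names were past 2-fold, 26 higher in EVd and 32 lower, so the balance turned. None of the 8 names counted there was past 2-fold. Their median was -0.37 and all 8 were below 0, beside a median of -0.19 and 138 of 246 below 0 over all names. Arms of 1 hairpin and near-identical names share a source, so these values are not independent.

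Markers of blood cells and liver differed more between these libraries. The 6 names of that list summed to 0.0168% in EVd and 0.170% in EVu in the PC12 table, with all 6 counted in both. The neuroendocrine list of 3 names summed to 1.93% in EVd and 2.06% in EVu, but its names moved in opposite directions. miR-375-3p had 2770 CPM in EVd and 5964 in EVu, and miR-7b had 62.0 and 97.6. miR-7a-5p, the bulk of the sum, had 16472 CPM in EVd and 14579 in EVu. The neural list, of which 3 names are in this table, summed to 0.848% in EVd and 1.11% in EVu. The part of these in the ratios of miR-10 and miR-196 was not tested.

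**Figure D5:**
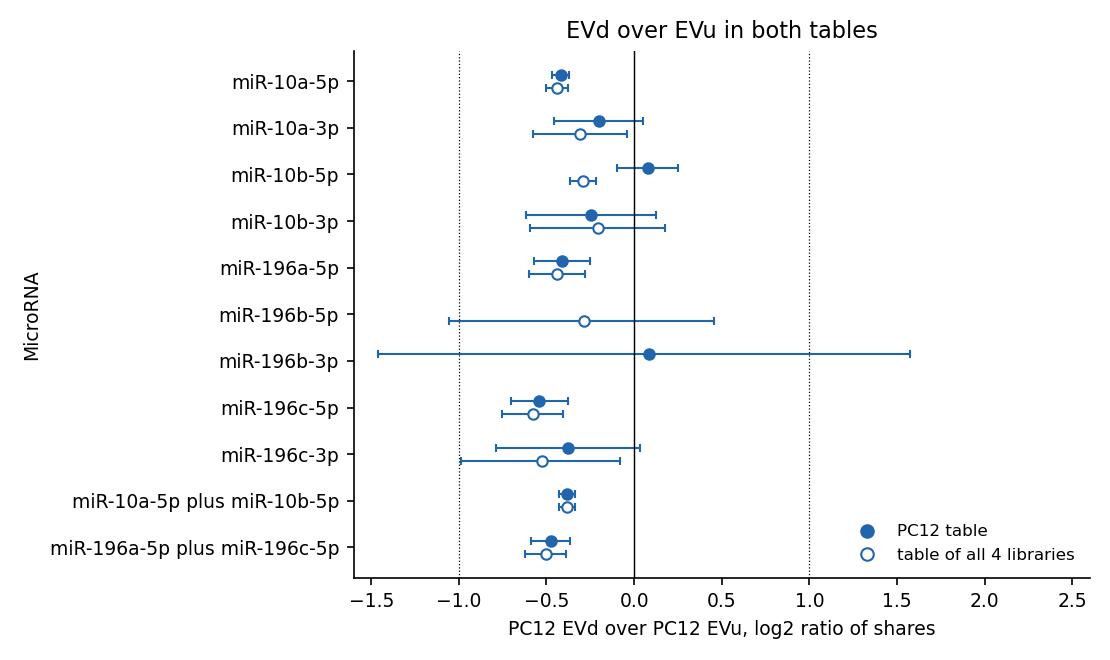
log2 ratio of shares, EVd over EVu, with exact 95% intervals, in the PC12 table (filled) and the table of all 4 libraries (open); dotted lines mark 2-fold. miR-10a-5p, miR-196a-5p and miR-196c-5p lie left of 0 in both tables, and miR-10b-5p lies at 0.08 in one and -0.29 in the other.

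The labels of the cell lines were checked on marker microRNAs in the table of all 4 libraries. The epithelial list of 7 names, which includes the miR-200 family and miR-205, summed to 1.21% and 1.17% in RMT1, against 0.0201% in EVd and 0.0213% in EVu. The PC12 table gave this list 0.0592% in EVd and 0.0623% in EVu. Of its names, miR-203a-3p differed less, with 153 and 169 CPM in RMT1, against 112 in EVd and 75.5 in EVu. In the PC12 table it had 421 CPM in EVd and 402 in EVu, above RMT1. The neuroendocrine list summed to 0.149% and 0.158% in RMT1, with miR-375-3p at 0, against 2.10% in EVd and 2.25% in EVu. The neural list of 4 names summed to 0.0113% and 0.0117% in RMT1, with miR-9a-5p at 0, against 0.948% in EVd and 1.23% in EVu. Its miR-124-3p was at 0 in RMT1 too, but had only 1 count in EVd and 0 in EVu. The mesenchymal list of 4 names summed to 0.00976% and 0.00349% in RMT1, against 0.0343% in EVd and 0.0682% in EVu. Its most abundant name, miR-143-3p, had 95.1 and 33.5 CPM in RMT1, against 192 in EVd and 472 in EVu. Of the rest, miR-214-3p was at 0 in all 4 libraries, and miR-145-5p had 2 and 1 counts in RMT1, against 3 in EVd and 17 in EVu. These lists moved with cell line as miR-10 and miR-196 did or opposite to them, and their part in the difference was not tested.

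miR-99a, miR-99b and miR-100 are relatives of miR-10 encoded outside the Hox clusters. They are shown because their start resembles that of miR-10, with another seed, in capitals.
miR-99b-5p: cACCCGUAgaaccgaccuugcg
miR-100-5p: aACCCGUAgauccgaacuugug
miR-100-5p stands at an edit distance of 3 bases from miR-10a-5p. It had 129 and 119 counts in RMT1, against 1 in EVd and 1 in EVu, and its pooled share was 63.4-fold higher in RMT1 (17.4 to 526). miR-99a-5p had 113 and 120 counts in RMT1, against 0 in EVd and 1 in EVu, and its pooled share was 119-fold higher in RMT1 (21.2 to 4725). Both reached the minimum linear mean through RMT1 alone, so no p is given.

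These ratios are uncertain, because the PC12 table gave more counts for the same PC12 libraries. It had 15 in EVd and 21 in EVu for miR-100-5p, and 25 and 39 for miR-99a-5p. miR-99b-5p, the most abundant relative, had 3517 and 3300 counts in RMT1, against 5697 in EVd and 7845 in EVu. It did not pass in limma, at -0.46 ± 0.14 (SE, adjusted p = 0.130), and passed in edgeR's quasi-likelihood test on the recovered counts, at -0.66 (adjusted p = 4.96e-05), and in limma by library totals, at -1.95 (adjusted p = 0.00682). miR-99a-3p had 11 and 8 counts in RMT1 and 0 in both PC12 libraries, which the filter also let through on RMT1 alone. miR-99b-3p did not pass in the authors' scaling, at 0.29 (limma, adjusted p = 0.156), and its sign changed by library totals, at -1.20 (limma, adjusted p = 0.00808).

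miR-615, the remaining Hox microRNA on the lists, is encoded within the spans of Hoxc6 and Hoxc5. It had 0 counts in both RMT1 libraries, 0 in EVd and 2 in EVu, and was not tested. The PC12 table gave 12 counts in EVd and 9 in EVu. It was thus rare in PC12, unlike its Hoxc neighbour miR-196a-5p.

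The profile of miR-10a-5p over the 4 libraries was nearest to that of miR-199a-3p, at a distance of 0.139, among 242 names with a mean of at least 10 counts. The distance is Euclidean, between log2(CPM + 1) profiles centred on their own means, and its median over names was 5.12. miR-199a-3p had 0 and 0 counts in RMT1, against 48 in EVd and 75 in EVu, so its nearness rests on the value given to a count of 0. miR-497-5p came next, at 0.316, with 3 and 2 counts in RMT1, against 158 in EVd and 294 in EVu, and then miR-218a-2-3p at 0.436, with 0 and 0 counts in RMT1, against 30 in EVd and 62 in EVu, which rests on the value given to 0 as well. For miR-196c-5p the nearest was miR-672-5p, at 0.387, with 1 and 3 counts in RMT1, against 1046 in EVd and 1391 in EVu. With 0 and 1 counts of miR-196c-5p itself in RMT1, its distances rest on the pseudocount too. miR-672-5p was followed by miR-384-5p at 0.979 and miR-29c-3p at 1.28, and with 4 libraries such likeness is only a description.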

How the data were processed

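Per the labels' protocols, vesicle RNA was purified with QIAzol and a miRNeasy kit, and libraries were built with a QIAseq miRNA kit. A mouse build, mm10, stands in the submitters' processing notes. For the aligner, the counter and the authors' scaling, the tool is not given in the sources used here. Per the file headers, the PC12 table holds raw counts per name, beside the authors' log2 normalized values. The table of all 4 libraries holds log2 values that the authors scaled together, with 0 where nothing was counted. Dividing its linear values by a library's smallest step gave the recovered counts, and 100% came out whole within 0.1.

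RMT1 EV was compared with the mean of EVd and EVu by limma 3.58.1 in R 4.3.3, with a mean-variance trend, 3 groups, names with a linear mean of at least 10 and Benjamini-Hochberg adjustment over all 278. Alternatives included edgeR 4.0.16 and DESeq2 1.42.0 on the recovered counts. EVd over EVu is a log2 ratio of CPM from the PC12 table. Medians and counts past 2-fold used a pseudocount of 1 CPM, and printed ratios with intervals are ratios of shares. Intervals are exact (Clopper-Pearson for shares, conditional binomial for ratios) at 95%. The ratio interval, the recovery of counts and the limma and edgeR fits were tested on simulated data, and the other steps were not. Named names are every name the rule finds, marker and relative lists, and the 3 nearest profiles of miR-10a-5p and miR-196c-5p. The names and lists were chosen with earlier results of these data known. Mature sequences are RefSeq's on GRCr8, and other sheets of the deposited tables were not used.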

Additional observations from a re-analysis of the deposited data

How the results depend on the processing

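miR-10a-5p stayed lower in RMT1 and past the threshold in all 14 settings run on it, the main fit included, with differences of -7.23 to -5.56 and adjusted p at most 0.0136. Some of these settings, the joined PC12 group and the fits without an RMT1 library, took EVd and EVu as replicates, though their labels differ. The other 7 tested names reached the minimum through PC12 alone, so their calls under the alternatives say nothing about stability. Alternatives that used only names counted in both RMT1 libraries, or that summed near-identical names, were added after seeing the data. limma called 103 lower and 92 higher. It called 192 lower with no filter, since 440 names were then tested. Without 1 library it called 89 to 99 lower and 53 to 85 higher, with 56 higher without RMT1 EV 1 and 53 without RMT1 EV 2. By library totals it called 145 lower and 64 higher, so 30.6% of calls were higher, against 47.2% in the authors' scaling. edgeR called 145 lower and 100 higher, and DESeq2 106 and 77.

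Of the names past 2-fold in EVd over EVu, 65 were higher and 33 lower. The table of all 4 libraries gave 26 higher and 32 lower, and a minimum mean of 100 gave 24 higher and 13 lower, with fewer names compared (246 and 176), and no filter gave 54 lower. miR-10b-5p was the only name here whose EVd over EVu value moved outside its interval.

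With let-7 left out of the totals the summed share was 0.0269% in RMT1, 2.64% in EVd and 3.53% in EVu, and the pooled ratio 117-fold. Without 1 RMT1 library the mean RMT1 share was 0.00813% to 0.00851%, and without 1 library of either line the pooled ratio was 249-fold to 327-fold. The PC12 table gave summed shares of 1.87% in EVd and 2.44% in EVu. Its splits were 8.29% and 6.03% for miR-10b-5p, 50.4% for miR-196c-5p in EVu, and 3.89% and 3.36% for miR-10a-3p. The cause was not tested.

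No paired analysis was possible, because no label pairs an RMT1 library with a PC12 library and each PC12 group has 1 library. Depth limits every RMT1 value but that of miR-10a-5p, since none of the others had more than 4 counts.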
